A study of Mus musculus with 6 samples.

Results

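The m6A readers examined here were 9 genes: the 5 YTH-domain genes Ythdf1, Ythdf2, Ythdf3, Ythdc1 and Ythdc2, the 3 insulin-like growth factor 2 mRNA-binding protein genes Igf2bp1, Igf2bp2 and Igf2bp3, and Fmr1. They were chosen by name as readers outside the Prrc2 family, with earlier results of these data known. They were 9 of 37315 genes in the count files, 26277 of them with any read. Each reader was counted in all 6 libraries. The tissue was hippocampus, taken from C57BL/6J mice at an age of 4 weeks, and each of 3 experiments gave a control library and an altered one. The first set Prrc2a flox/flox mice (f/f) beside Prrc2a flox/flox; nestin-cre mice (Nestin-Cre), and the second set f/f mice beside Prrc2a flox/flox;Olig2-cre mice (Olig2-Cre). The third set wild-type mice (WT) beside mice with an Fto transgene (Fto Tg), which was brought in by lentivirus under the broadly active ubiquitin C promoter. Both f/f controls carry the floxed alleles without Cre, and their sample titles call them WT. The paper states that Olig2-Cre is driven by the endogenous Olig2 promoter and leaves the mice haploinsufficient for Olig2. Nestin-Cre is active in neural progenitors and so in the neurons and glia made from them, whereas Olig2-Cre is active in the cells that express Olig2, mainly the oligodendroglial lineage. Whole hippocampus mixes these with other cells. Each group had 1 library, the sources used here do not say whether mice were pooled, and a difference within a pair therefore has no replicate check.

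N6-methyladenosine (m6A) is a methyl mark inside mRNA, and its readers are proteins that bind marked transcripts. The cytoplasmic YTHDF proteins bind the mark through the YTH domain and act on mRNA decay and translation, nuclear YTHDC1 acts on splicing, export and chromatin-bound RNA, and YTHDC2 is a helicase best known from germ cells. The IGF2BPs hold mRNAs in a stable state and are mostly made in the fetus. FMRP, the product of Fmr1, represses translation in neurons, and its loss causes fragile X syndrome. Prrc2a was described as a further reader, and Fto removes the mark.

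Library totals ran from 18616540 counts (Olig2-Cre) to 35482589 (f/f of the Nestin-Cre experiment), and 3 counts, the least a library was taken to show, were 0.0845 to 0.161 counts per 1000000 counts (CPM). The Nestin-Cre library stood apart from the rest. Its mitochondrial share was 26.2% of counts, against 7.97% to 8.86% elsewhere, and the median of all genes lay at a log2 ratio of -0.72 to its own control when CPM was used. Trimmed-mean (TMM) scaling, which centers most genes, moved that median to -0.03. Ratios of the Nestin-Cre pair are therefore given on both scales. The labels were checked on the targeted genes. Prrc2a had 184 CPM in the Nestin-Cre library, 346 CPM with Olig2-Cre and 351 to 434 CPM in the 3 controls (with TMM scaling 274, 317 and 323 to 402), while Fto had 354 CPM in Fto Tg and 136 to 164 CPM in the other 5. Markers of hippocampal neurons were present in every library, with a sum of 3588 to 4852 CPM over 7 genes.

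Per length, Ythdf3 and Ythdf1 had the highest mean levels of the readers in control hippocampus and the Igf2bp transcripts were nearly absent. In CPM per kilobase of exon, the 3 controls averaged 19.9 ± 2.45 for Ythdf3 (SD, n = 3) and 19.5 ± 1.47 for Ythdf1, with overlapping ranges. Fmr1 followed with 9.63 ± 0.807 and overlapped Ythdf2 at 8.90 ± 1.18. Ythdc1 (7.07 ± 0.315), Ythdc2 (4.76 ± 0.613), Igf2bp3 (0.411 ± 0.0235), Igf2bp2 (0.140 ± 0.0356) and Igf2bp1 (0.0239 ± 0.0139) came next, and no 2 neighbors in this part of the order overlapped. The order depended on the length used. All Ythdc1 exons together span 13651 bases and its longest transcript 6313 bases, and for Fmr1 these are 8966 and 4409 bases. With the longest transcript as length, Fmr1 had 19.6 ± 1.64 and Ythdc1 15.3 ± 0.681, both above Ythdf2 at 9.86 ± 1.31. The range of Fmr1, 17.9 to 21.2, then overlapped those of Ythdf1 (18.6 to 21.4) and Ythdf3 (18.2 to 23.3).

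**Figure D1:**
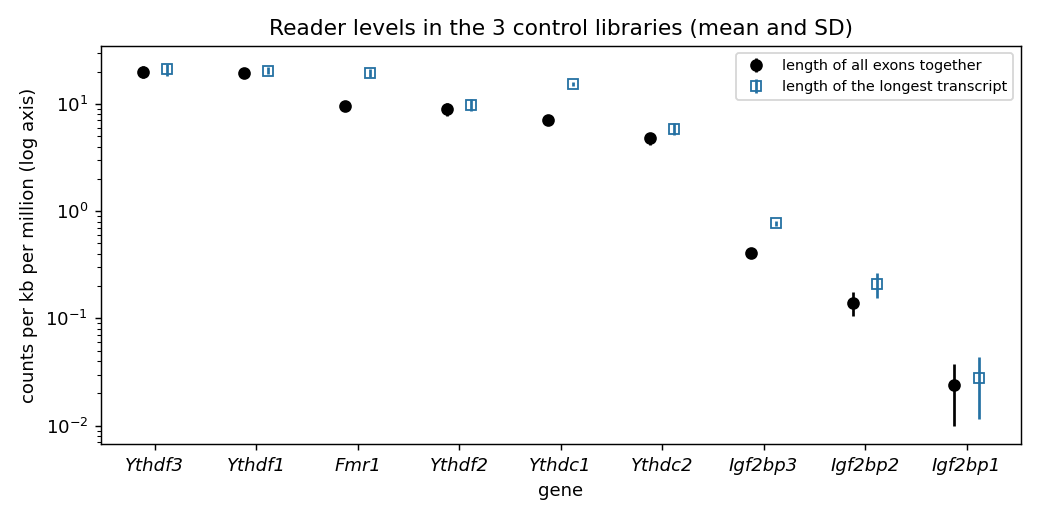
Level of each reader in the 3 control libraries (vertical log axis, CPM per kilobase; points are means and bars SD, n = 3), with 2 definitions of transcript length. Ythdf3 and Ythdf1 are at about 20 with either length, the 3 Igf2bp genes are below 1, and Fmr1 and Ythdc1 are the genes that move up most when the longest transcript is used.

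The controls also gave the spread between libraries that are not altered. On the log2 CPM scale, the SD over the 3 controls was 0.064 for Ythdc1, 0.081 for Igf2bp3, 0.11 for Ythdf1 and 0.12 for Fmr1, against a median of 0.14 for 14441 genes with at least 100 counts. Ythdf2, Ythdf3 and Ythdc2 varied more, with SDs of 0.19, 0.18 and 0.19. For Igf2bp1 the SD was 0.99, since its counts were 12, 8 and 2. The 3 controls come from different experiments and from f/f and WT mice, so this spread holds the differences between experiments as well.

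**Figure D2:**
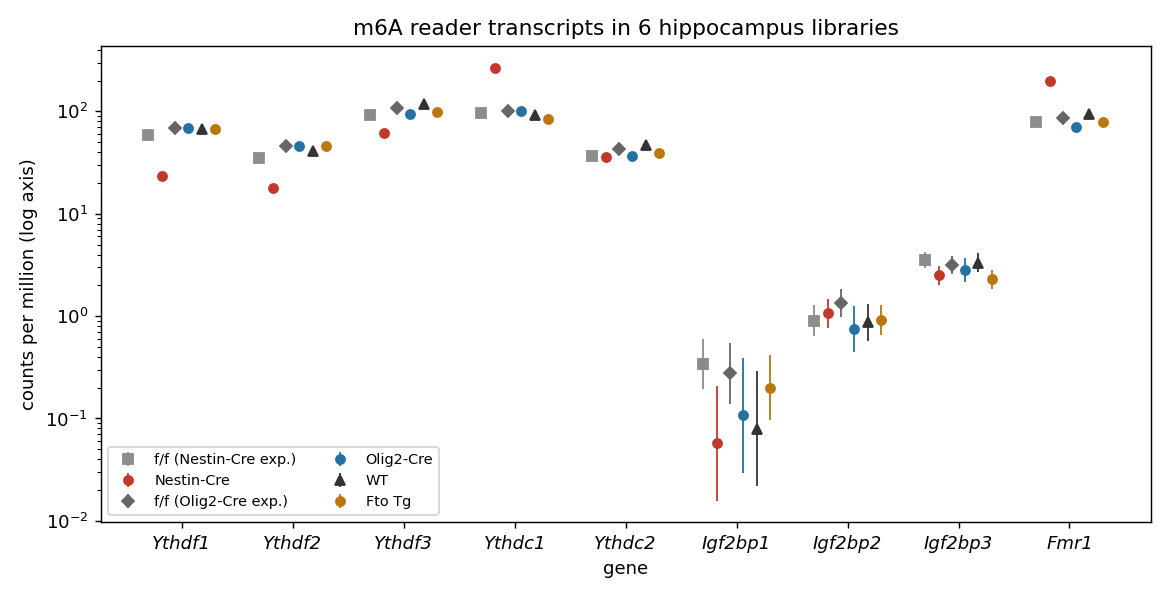
CPM of the 9 readers (vertical log axis) in each of the 6 libraries, with Wilson 95% intervals that cover counting error only. In the Nestin-Cre library (red), Ythdc1 at 262 and Fmr1 at 198 lie above the other 5 libraries and Ythdf1 at 23.4, Ythdf2 at 17.9 and Ythdf3 at 62.1 lie below them.

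The comparison of Nestin-Cre with its f/f control asks how reader transcripts differ when Prrc2a is deleted throughout the neural lineage. By CPM, Ythdc1 and Fmr1 were more than 2-fold higher in the Nestin-Cre library, Ythdf1, Ythdf2, Ythdf3, Igf2bp1 and Igf2bp3 were lower, and Ythdc2 and Igf2bp2 differed by less than 1.2-fold, the fold threshold of the study. Thus 2 of 9 readers were at least 1.2-fold higher, where 17.5% of 18170 genes were, and 5 of 9 were at least 1.2-fold lower, where 66.8% were. The median log2 ratio of the 9 readers was -0.50 and that of all genes -0.72. In whole tissue, fewer cells of a type and less RNA per cell cannot be told apart.

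Ythdc1 (ENSMUSG00000035851, chr5:86804221-86836659, plus strand, GRCm38) encodes the nuclear YTH reader. It had 96.6 CPM in the f/f library and 262 CPM in the Nestin-Cre library of this experiment, 101 CPM in f/f and 100.1 CPM in Olig2-Cre, and 92.1 CPM in WT and 85.1 CPM in Fto Tg. The Nestin-Cre value was above all 5 others, which lay close together. The log2 ratio of the pair was 1.44 by CPM (2.72-fold, 95% counting interval 2.61 to 2.83) and 2.13 by TMM, and by CPM only 3.39% of all genes tested had a higher ratio. A fit by edgeR across all genes set the Nestin-Cre library against the 3 controls, under the assumption that a lone library varies as the controls do. It gave Ythdc1 a log2 change of 2.14 (SE 0.11, quasi-likelihood test, Benjamini-Hochberg adjusted p = 3.36e-05). Such a call says that this library differs from the controls, and it does not test the genotype.

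Fmr1 (ENSMUSG00000000838, chrX:68678541-68717963, plus strand) was high in the same library as Ythdc1. It had 79.1 CPM in f/f and 198 CPM in Nestin-Cre, 86.4 CPM in f/f and 70.5 CPM in Olig2-Cre, and 93.5 CPM in WT and 79.0 CPM in Fto Tg. The Nestin-Cre value was again above all others, and both other altered libraries were below the 3 controls, Fto Tg by less than 1 CPM. The log2 ratio was 1.32 by CPM (2.50-fold, 2.39 to 2.62) and 2.01 by TMM, and the edgeR fit gave 1.90 (SE 0.13, adjusted p = 6.25e-05).

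The YTHDF transcripts were lower by CPM, and to unequal degrees. Ythdf1 (ENSMUSG00000038848, chr2:180904377-180920949, minus strand), whose protein is best known for promoting translation, had 59.2 CPM in f/f and 23.4 CPM in Nestin-Cre, 68.1 CPM in f/f and 68.6 CPM in Olig2-Cre, and 67.0 CPM in WT and 67.5 CPM in Fto Tg. It was low in the Nestin-Cre library alone and within 59.2 to 68.6 CPM in the rest. Its log2 ratio was -1.33 by CPM and -0.65 by TMM, and it passed the edgeR test as lower, with a log2 change of -0.76 (SE 0.15, adjusted p = 0.0041).

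Ythdf2 (ENSMUSG00000040025, chr4:132184912-132212303, minus strand) encodes the reader that recruits the CCR4-NOT deadenylase. It had 35.3 and 17.9 CPM in the f/f and Nestin-Cre libraries, 46.1 and 46.3 CPM in the Olig2-Cre experiment and 40.7 and 46.4 CPM in WT and Fto Tg. Its Nestin-Cre value was the lowest of the 6, but the ratio to its own control, -0.98 by CPM, became -0.30 by TMM. The TMM value is smaller than the largest log2 ratio between any 2 controls, 0.38 by CPM, and the value after adjustment for GC content and length, -0.51, is larger. It did not pass the edgeR test (log2 change -0.48, SE 0.17, adjusted p = 0.054), and it did pass without the f/f library of the same experiment (-0.58, adjusted p = 0.0090).

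Ythdf3 (ENSMUSG00000047213, chr3:16183212-16217037, plus strand), whose protein works with both other YTHDF readers, had 92.7 and 62.1 CPM in the f/f and Nestin-Cre libraries, 109 and 93.4 CPM in the Olig2-Cre experiment and 119 and 98.2 CPM in WT and Fto Tg. The Nestin-Cre library was the lowest by CPM with a log2 ratio of -0.58, but the sign turned to 0.11 by TMM, and the edgeR test gave -0.08 (SE 0.16, adjusted p = 0.71). After adjustment for GC content and length the ratio was -0.51. Its direction in this pair thus rests on the scaling. Within the YTHDF family, and per length, Ythdf3 made up 51.3% of the family total with Nestin-Cre and 36.1% to 43.2% in the other 5, while Ythdf1 made up 31.3% and 39.4% to 42.9%.

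Ythdc2 (ENSMUSG00000034653), the helicase reader, was close to its control by CPM, with 36.5 CPM in f/f and 36.0 CPM in Nestin-Cre. It had 42.9 and 36.6 CPM in the Olig2-Cre experiment and 47.3 and 39.7 CPM in WT and Fto Tg, so that the Nestin-Cre value was the lowest of the 6 but within 1 CPM of its control and of Olig2-Cre. By CPM the log2 ratio was -0.02 and by TMM it was 0.67. The edgeR fit called it higher at 0.47 (SE 0.16, adjusted p = 0.045), with a log2 change of -0.23 when library totals alone were used and an adjusted p of 0.075 without the f/f control from the Olig2-Cre experiment.

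In that edgeR fit, 4 of the 9 readers passed. Ythdc1, Fmr1 and Ythdc2 were called higher, where 23.2% of 18190 genes tested were, and Ythdf1 was called lower, where 24.6% were. All genes split into 4215 higher and 4466 lower with TMM, and into 1590 higher and 9024 lower with library totals alone. With totals alone, 2 readers were called higher and 3 lower.

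**Figure D3:**
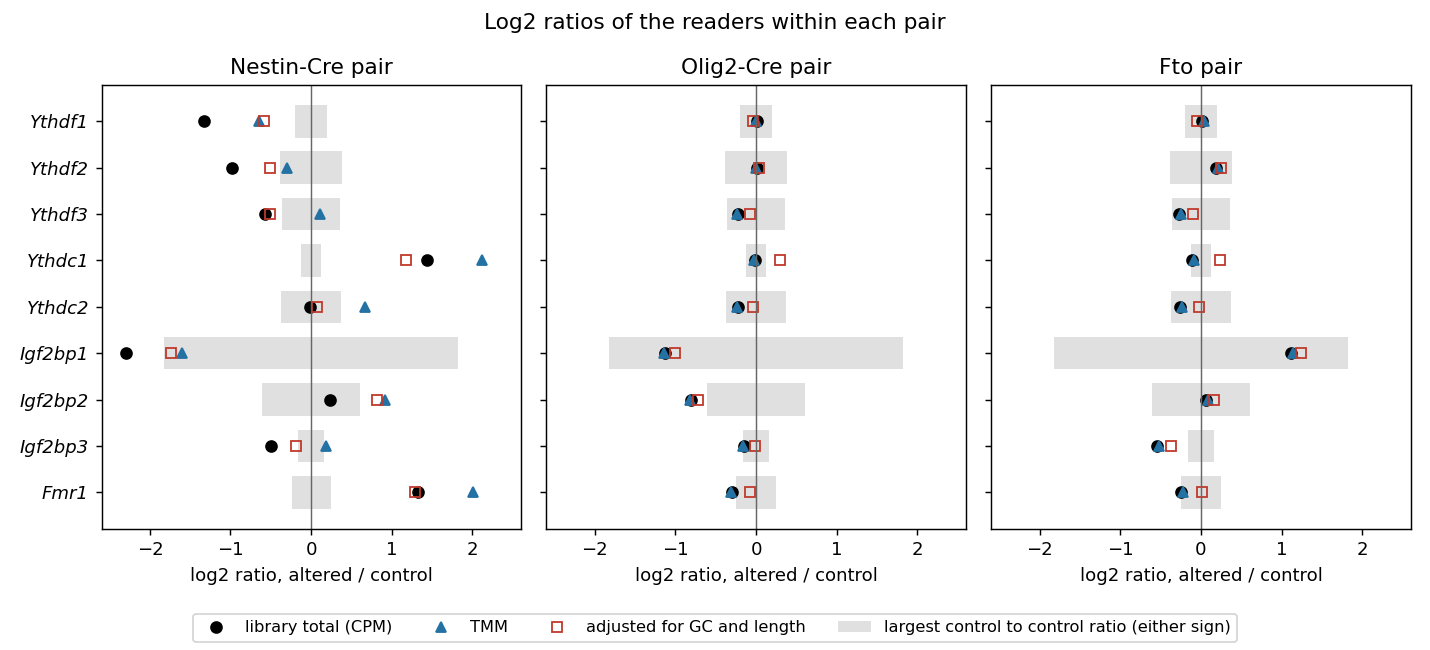
Log2 ratio of the altered to the control library for each reader (horizontal axis) in the 3 pairs, by library totals (black), TMM (blue) and after adjustment for GC content and length (red squares), with gray bars that reach the largest log2 ratio between any 2 controls in either sign. Ythdc1, Fmr1 and Ythdf1 in the Nestin-Cre pair lie beyond the gray bar on all 3 scales with the same sign. Igf2bp3 lies beyond its bar of 0.16 on all 3 with a change of sign (-0.50, 0.18 and -0.19). Igf2bp1 has a bar of 1.83 to either side.

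Ratios of counts between readers within 1 library need no scaling. The count of Ythdc1 divided by that of Ythdf1 was 1.63 in f/f and 11.2 in Nestin-Cre, and 1.26 to 1.63 over the 5 other libraries. For Fmr1 over Ythdf1 the values were 1.34 and 8.44, with 1.03 to 1.40 over the 5 others, and for Ythdc1 over Ythdf3 they were 1.04 and 4.22, with 0.775 to 1.07. The ratio of Fmr1 to Ythdc1, by contrast, was 0.754 in Nestin-Cre, inside the 0.704 to 1.02 of the others. Ythdf1 over Ythdf2 was 1.31, slightly below the others at 1.45 to 1.68. Unequal change among the readers of the Nestin-Cre library was thus visible without any choice of scale, while these ratios do not show which reader changed.

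**Figure D4:**
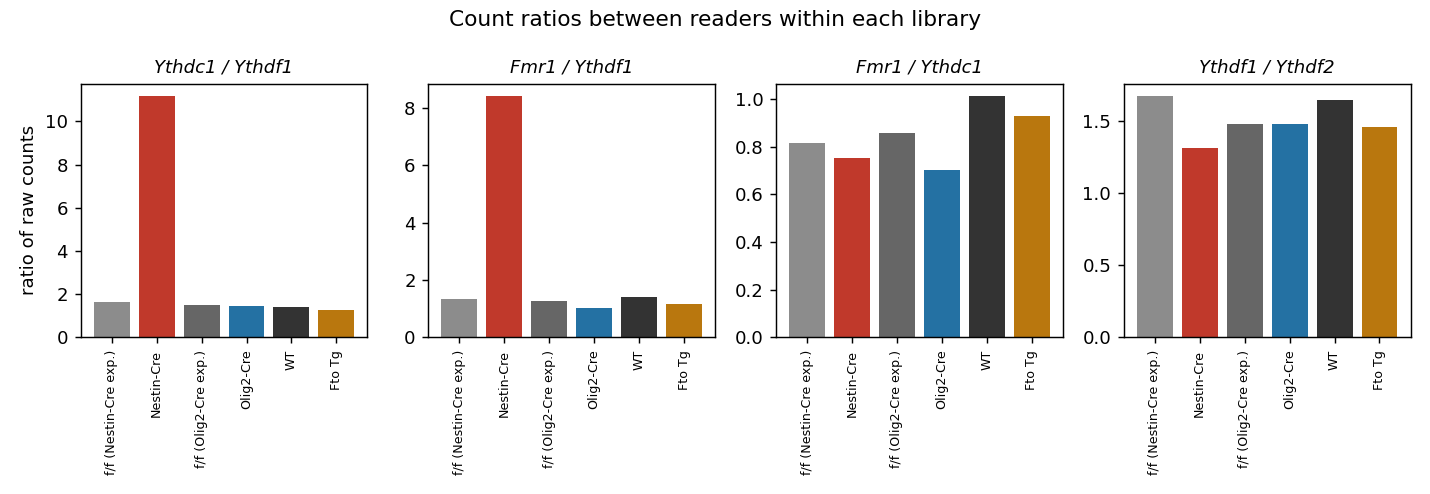
Ratio of the raw counts of 2 readers within each of the 6 libraries (1 bar each, axis from 0). Ythdc1 to Ythdf1 reaches 11.2 and Fmr1 to Ythdf1 reaches 8.44 in the Nestin-Cre library, against at most 1.63 and 1.40 elsewhere, while Fmr1 to Ythdc1 lies between 0.704 and 1.02 in all 6.

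Base composition moved with the ratios of this pair, and with those of the other pairs in the opposite direction. Across 13630 genes with at least 100 counts and a known GC content, the Spearman correlation of the log2 ratio with GC content was -0.43 (a description over genes of 2 libraries), and GC content and length together accounted for 21.7% of the variance. Ythdc1 (37.6% GC), Ythdf3 (38.4%) and Fmr1 (39.2%) have the transcripts lowest in GC among the readers. Genes within 1 percentage point of Ythdc1 had a median ratio of -0.13 (303 genes), and 8.91% of them were at or above Ythdc1. For Fmr1 the median was also -0.13 (609 genes) with 8.70% at or above, while Ythdf3 at -0.58 was below its neighbors' median of -0.13. A spline adjustment for length and GC content, by which ratios are centered too, left a log2 ratio of 1.18 for Ythdc1, 1.29 for Fmr1, 0.08 for Ythdc2, -0.59 for Ythdf1, -0.51 for Ythdf2 and -0.51 for Ythdf3. On totals without mitochondrial genes, the log2 ratios were 1.76 for Ythdc1, 1.64 for Fmr1 and 0.30 for Ythdc2. They were -1.02 for Ythdf1, -0.66 for Ythdf2 and -0.26 for Ythdf3. Ythdc2 thus turned from -0.02 by CPM to past 1.2-fold higher. Beyond these recomputed ratios, the part of base composition and of the mitochondrial share in these results was not tested.

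**Figure D5:**
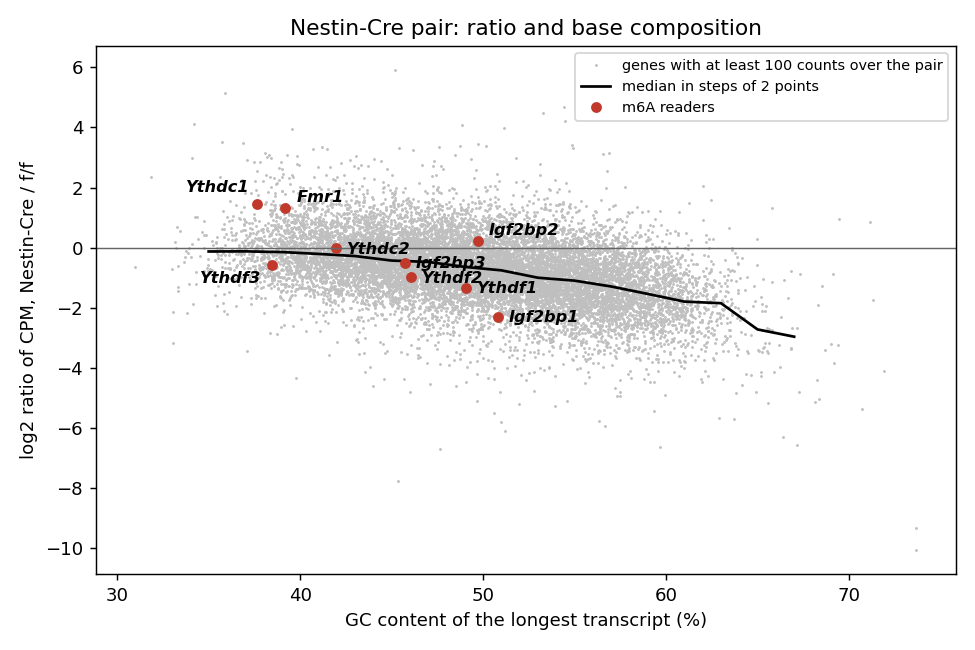
Log2 ratio of CPM in the Nestin-Cre pair (vertical axis) against GC content of the longest transcript in percent (horizontal axis), with 1 gray point a gene, the median in steps of 2 points (line) and the readers in red. The line falls toward high GC, Ythdc1 and Fmr1 lie well above it, and Ythdf1 and Ythdf3 lie below it.

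Cell type markers moved in this library too. All 6 choroid plexus markers were at least 1.2-fold lower by CPM in Nestin-Cre than in its control, where 66.8% of all genes were. Their sum was 268 CPM against 1651 to 2882 CPM in the 3 controls, and with TMM 399 against 1516 to 2669. That sum was 3428 CPM in Olig2-Cre and 695 CPM in Fto Tg. The other lists depended on the scale or were mixed. Of 7 hippocampal neuron markers 3 were higher and 3 lower, and Snap25 went from 1595 to 2936 CPM while Slc17a7 went from 1407 to 373 CPM. Their sum was 4852 CPM against 3588 to 3950 CPM in the controls, and with TMM 7223 against 3294 to 3658. Of 6 oligodendrocyte markers 4 were lower, with a sum of 6454 CPM against 8105 to 9321 CPM. With TMM, by contrast, the sum of 9608 was above the 7491 to 8556 of the controls. The oligodendrocyte sum was 6435 CPM in Olig2-Cre and 10773 CPM in Fto Tg, and with TMM 5898 and 10050. Of 5 astrocyte markers 3 were higher and 1 lower, with a sum of 1797 CPM against 1322 to 1502 CPM, and with TMM 2674 against 1224 to 1389. The astrocyte sum was above the controls in Olig2-Cre and Fto Tg too, at 1775 and 1622 CPM, and with TMM at 1627 and 1513. Of 9 newborn neuron and progenitor markers 5 were higher and 3 lower. Their sum of 211 CPM against 309 to 349 CPM was mostly Tubb3, which went from 249 to 76.4 CPM, and with TMM the sum of 314 was inside the 286 to 323 of the controls. None of these markers was at 0 in any library, and their part in the reader results was not tested.

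Promoter sequences are shown for the readers that stood apart in the Nestin-Cre library, so that the regions of Ythdc1 and Fmr1, which were high together, can be read beside that of Ythdf1, which was low. RefSeq promoters (GRCm38.p6, 250 bases before to 50 after the start) were found for 6 of the 9 genes and searched on both strands for an E-box (CACGTG), a GC box (GGGCGG) and a CRE half-site (TGACG) (matches of each motif were counted by themselves, and those of different motifs may overlap). Windows of at most 30 bases before the start are given on the strand of the gene, with the motif or its complement in capitals.
Ythdc1 GC box, chr5:86804071-86804100 (plus strand): agtttgcgcgcgGGGCGGgacgacgtgccg
Ythdc1 CRE half-site, chr5:86804167-86804196 (plus strand): ttccccgcactgTGACGttccgcgagaggc
Fmr1 GC box, chrX:68678472-68678501 (plus strand): gagaggaggcaaGGGCGGagcggagagggc
Fmr1 E-box, chrX:68678518-68678540 (plus strand): ggctgcgcgggtCACGTGacatc
Ythdf1 GC box, chr2:180921067-180921096 (minus strand): tctcgagtcgccCCGCCCcatccggtccgg
Ythdf1 E-box, chr2:180921087-180921116 (minus strand): ccccaggagcccCACGTGactctcgagtcg

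Ythdc1 had 5 GC boxes and 2 CRE half-sites, Fmr1 had 2 GC boxes and 1 E-box, and Ythdf1 had 3 GC boxes, 1 E-box and 1 CRE half-site. Of 32851 promoters of this length, 35.7% held a GC box, 7.15% an E-box and 20.8% a CRE half-site. GC boxes were thus in the promoters of Ythdc1, Fmr1 and Ythdf1. An E-box was in those of Fmr1 and Ythdf1, and a CRE half-site in those of Ythdc1 and Ythdf1. Whether these motifs bear on the reader levels was not tested. A match is a run of letters and not a known site. The transcripts were also searched for GGACT, a common form of the m6A consensus. The longest transcripts of Ythdc1 and Ythdf2 held 1.43 and 1.21 per kilobase, above the median of 1.04 over 13688 genes, while those of Fmr1 (0.454), Ythdf1 (0.314) and Ythdf3 (0.196) were below it. The mark itself was not measured in these libraries.

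The Igf2bp genes were at the edge of what these libraries show. Igf2bp1 (ENSMUSG00000013415, chr11:95957163-96005940, minus strand), which encodes a fetal mRNA-binding protein, had 12 and 2 counts in the f/f and Nestin-Cre libraries, 8 and 2 in the Olig2-Cre experiment, and 2 and 7 in WT and Fto Tg. The ratio was 0.170 in the Nestin-Cre pair (95% counting interval 0.0185 to 0.764), 0.390 in the Olig2-Cre pair (0.0403 to 1.95) and 2.53 in the Fto pair (0.481 to 24.9). Control and altered counts overlapped, and the WT control was as low as both Cre libraries. A difference of Igf2bp1 in the Fto pair or in the Olig2-Cre pair was thus not detectable at this depth.

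Igf2bp2 (ENSMUSG00000033581, chr16:22059009-22163299, minus strand), the family member most often found in adult tissue, had 0.902 and 1.06 CPM in the f/f and Nestin-Cre libraries, 1.34 and 0.752 CPM in the Olig2-Cre experiment, and 0.873 and 0.917 CPM in WT and Fto Tg, from 14 to 39 counts a library. The Olig2-Cre library was the lowest and its own control the highest, with a ratio of 0.560 (counting interval 0.281 to 1.05) that includes no difference.

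Igf2bp3 (ENSMUSG00000029814, chr6:49085223-49214957, minus strand), a fetal member that returns in tumors, had 3.55 and 2.50 CPM, 3.17 and 2.85 CPM, and 3.33 and 2.29 CPM in the same order, from 53 to 126 counts. Each altered library was below all 3 controls, which ranged from 3.17 to 3.55 CPM. In the Nestin-Cre pair this turned from a log2 ratio of -0.50 by CPM to 0.18 by TMM. Of its exon bases, 18.7% are shared with Malsu1 on the other strand in GENCODE M21, and union counting without strand gives reads there to neither gene. None of the 3 genes passed the edgeR test in any library, and their adjusted p-values in the Nestin-Cre library were 0.41, 0.21 and 0.43 for Igf2bp1, Igf2bp2 and Igf2bp3.

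The Olig2-Cre pair asks about Prrc2a deletion in the oligodendroglial lineage. Its f/f control has no Cre, so the reduced Olig2 dose of the Olig2-Cre mice and the Prrc2a deletion cannot be told apart. Ythdf1, Ythdf2 and Ythdc1 were almost equal to their control, with log2 ratios of 0.01, 0.01 and -0.01 and fold intervals of 0.938 to 1.08, 0.921 to 1.10 and 0.938 to 1.05. After adjustment for GC content and length Ythdc1 was at 0.30, past 1.2-fold, and Ythdf1 and Ythdf2 were at -0.03 and 0.04. Ythdf3 and Ythdc2 were at -0.22 and -0.23 (fold intervals 0.810 to 0.911 and 0.776 to 0.938), inside the range of the 3 controls. These intervals cover counting error only. Fmr1 had the lowest value of all 6 libraries, 70.5 CPM against 79.1 to 93.5 CPM in the controls. Its log2 ratio was -0.29 with its own control (fold interval 0.763 to 0.873), -0.17 with the other f/f library and -0.07 after adjustment for GC content and length.

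None of 9 readers was at least 1.2-fold higher in the Olig2-Cre pair, where 17.9% of genes were, and 3 were at least 1.2-fold lower (Igf2bp1, Igf2bp2 and Fmr1), where 21.4% were. Above all 3 controls were 2 readers (Ythdf1 and Ythdf2, both by less than 1 CPM), against 28.3% of genes, and below all 3 were 3 readers (Igf2bp2, Igf2bp3 and Fmr1), against 30.2%. By edgeR's quasi-likelihood test against the 3 controls, 0 readers and 0 genes (0%) passed, with 1497 genes at an unadjusted p under 0.05 and 42 genes called by DESeq2. The smallest adjusted p among the readers was 0.62, for Fmr1 (log2 change -0.29, SE 0.14).

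The Fto pair asks about more of the m6A eraser. Ythdf1 was equal in both libraries (log2 ratio 0.01, fold interval 0.946 to 1.07), and Ythdf2 was at 0.19 (fold interval 1.05 to 1.23). Ythdf3, Ythdc2 and Fmr1 were at -0.27, -0.26 and -0.24, with fold intervals of 0.787 to 0.869, 0.775 to 0.906 and 0.799 to 0.893. The genes within 1 percentage point of GC had medians of -0.17 (429 genes), -0.12 (964 genes) and -0.17 (592 genes) in the same order. After adjustment for GC content and length Ythdf3, Ythdc2 and Fmr1 were at -0.10, -0.03 and 0.01, and the sign of Fmr1 thus turned. Ythdc1 was at -0.11 (fold interval 0.875 to 0.976) and turned to 0.23. Igf2bp3 was at -0.54, from 84 and 80 counts, and was below all 3 controls.

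In this pair 1 reader was at least 1.2-fold higher, where 19% of genes were. It was Igf2bp1, whose 9 counts over the pair were under the minimum of 10 used for that share. Lower by at least 1.2-fold were 2 readers (Ythdf3 and Igf2bp3), where 22.1% were. Above all 3 controls was 1 reader (Ythdf2, 46.4 CPM against at most 46.1 CPM), against 27.7% of genes, and below all 3 were 3 readers (Ythdc1, Igf2bp3 and Fmr1), against 29.4%. By edgeR against the 3 controls, 0 readers passed and 1 of 18190 genes did (0.0055%), with 1772 genes at an unadjusted p under 0.05 and 76 called by DESeq2. Igf2bp3 had the smallest adjusted p of the readers, 0.56 (log2 change -0.54, SE 0.28).

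The Nestin-Cre and Olig2-Cre libraries were also set against each other in the same edgeR fit, a contrast chosen after the values were seen. It called 5 of 9 readers, where 43.4% of genes were called. Ythdc1 was higher in Nestin-Cre by a log2 difference of 2.09 (SE 0.16, adjusted p = 0.00019) and Fmr1 by 2.19 (SE 0.18, adjusted p = 0.00021). Ythdf1 was lower (-0.85, adjusted p = 0.0062), as was Ythdf2 (-0.67, adjusted p = 0.035), and Ythdc2 was higher (0.68, adjusted p = 0.032) but at -0.02 with library totals alone.

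The only contrast with 2 libraries a side set both Cre libraries against both f/f libraries. By edgeR it called 0 of 8 readers tested and 0 of 16921 genes (0%), with 143 genes at an unadjusted p under 0.05 and 3 called by DESeq2. Ythdc1 had a log2 change of 1.41 (SE 0.72) and Fmr1 1.24 (SE 0.74), both with an adjusted p of 0.95, and both were high in 1 of the 2 Cre libraries. Without the Olig2-Cre library, 4 readers and 8480 genes were called.

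Other proteins of the reader pathways were counted on whole lists in the Nestin-Cre library, by the same edgeR test against the 3 controls in which 23.2% of genes were higher and 24.6% lower. Of 16 other m6A-binding proteins, 9 passed as higher and 4 as lower, with a median log2 change of 0.54 where the median of all genes was -0.07. Eif3a, a subunit of the translation initiation factor that can bind m6A, went from 235 CPM in f/f to 839 CPM (edgeR log2 change 2.62, adjusted p = 2.23e-05). Hnrnpa2b1, a nuclear protein that acts on m6A-marked RNA, went from 635 to 1310.4 CPM (1.80, adjusted p = 4.28e-05). The stress granule protein G3bp1 went from 78.9 to 22.8 CPM (-1.13, adjusted p = 0.00048), and Snd1, a Tudor-domain protein, from 86.7 to 27.2 CPM (-0.89, adjusted p = 0.0016).

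Of 7 nuclear partners of YTHDC1, 4 passed as higher and 1 as lower, with a median of 1.03. The scaffold attachment factor Safb went from 129 to 351 CPM (2.28, adjusted p = 4.32e-05), and its paralog Safb2 from 117 to 260.0 CPM (2.03, adjusted p = 7.82e-05). Srsf3, a splicing factor that works with YTHDC1 in exon inclusion and export, went from 124 to 45.0 CPM (-0.89, adjusted p = 0.0020). These members went in opposite directions.

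Of 16 CCR4-NOT and decay factors that act with YTHDF2, 7 passed as higher and 2 as lower, with a median of 0.14. Cnot4, a ubiquitin ligase of the complex, went from 34.3 to 121 CPM (2.27, adjusted p = 9.62e-05) and the subunit Cnot3 from 34.3 to 86.3 CPM (2.03, adjusted p = 4.84e-05). The deadenylase subunit Cnot8 went from 44.9 to 17.1 CPM (-0.74, adjusted p = 0.0038) and the decapping enzyme Dcp2 from 86.5 to 36.6 CPM (-0.57, adjusted p = 0.0084).

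Of 8 partners of FMRP, 4 passed as higher and 1 as lower. The cap-binding protein Eif4e went from 96.7 to 139 CPM (1.10, adjusted p = 0.00046), whereas Fxr2, a paralog of Fmr1, went from 119 to 41.6 CPM (-0.68, adjusted p = 0.0081). The transcript of Fxr2 has 58.5% GC, and after adjustment for GC content and length its log2 ratio was -0.04. The other paralog, Fxr1, had 47.2 and 43.5 CPM and passed as higher with TMM scaling (0.53, adjusted p = 0.0083), although its log2 ratio was -0.12 by CPM and -0.05 after the adjustment.

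Of 10 mRNAs known as FMRP targets, 4 passed as higher and 1 as lower. The microtubule protein gene Map1b went from 1407 to 3636 CPM (2.11, adjusted p = 2.67e-05), and the saposin precursor gene Psap from 1588 to 528 CPM (-0.66, adjusted p = 0.017). Of 7 mRNAs known as IGF2BP targets, 6 were tested, with 1 higher and 1 lower. Igf2 went from 180.3 to 202 CPM (1.08, adjusted p = 0.0043) and Actb from 1151 to 446 CPM (-0.83, adjusted p = 0.0044). No gene of the 6 lists passed in the Olig2-Cre or Fto Tg library, where 0 (0%) and 1 (0.0055%) of 18190 genes did. Fxr1 and Fxr2 are on both the list of m6A-binding proteins and that of FMRP partners.

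The balance of these lists rests on TMM scaling. By CPM, with 17.5% of genes at least 1.2-fold higher in the Nestin-Cre pair and 66.8% lower, 6 of the m6A-binding proteins were higher and 7 lower, as were 4 and 3 of the YTHDC1 partners, 5 and 9 of the decay factors, 1 and 4 of the FMRP partners, 1 and 5 of the FMRP targets and 2 and 3 of the IGF2BP targets.

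Across the 6 libraries, genes like the readers in log2 CPM were sought among 11568 genes with a mean of at least 5 CPM. Pnisr was most like Fmr1 (Pearson r = 0.999, n = 6 libraries), and its own log2 ratio between Nestin-Cre and f/f was 1.22. The Nestin-Cre library was part of that search, so a high ratio there follows from how Pnisr was picked. Between readers, r was 0.95 for Ythdc1 and Fmr1 and 0.98 for Ythdf1 and Ythdf2. Without the Nestin-Cre library, r was -0.19 for Ythdc1 and Fmr1 but still 0.93 for Ythdf1 and Ythdf2 (n = 5 libraries). The closest readers were then Ythdf3 and Ythdc2 (0.995). Dennd4c became the gene most like Fmr1, and its log2 ratio between Nestin-Cre and f/f was -0.32.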

How the data were processed

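Gene counts of 6 hippocampus RNA-seq libraries were used as deposited. According to the methods, the authors trimmed reads, aligned them to mm10 with TopHat (the submitters' processing notes name TopHat2 2.0.9 and HTSeq 0.6), kept uniquely mapped reads with a mapping quality of at least 20 and counted them per Ensembl gene in union mode without strand. The deposited values are raw counts. Reads shared by overlapping genes or by copies were not counted.

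Counts were scaled to library totals (CPM), with 0.5 added to each count for ratios, and each single value has a Wilson 95% interval. Exact binomial intervals were used for ratios. Intervals and the floor of 3 counts cover counting error only. Length, GC content and positions came from GENCODE M21 (GRCm38, the assembly of mm10). A pair of single libraries was not tested: genes at least 1.2-fold apart were counted among those with at least 10 counts over the pair. Each altered library was tested against the 3 controls with edgeR 4.0.16 in R 4.3.3 (TMM, filterByExpr, quasi-likelihood test, Benjamini-Hochberg FDR of 0.05, 4 groups, 2 residual degrees of freedom). Both Cre libraries were set against both f/f libraries by the same test in a separate fit with 2 groups. SEs were taken as the log2 change over the square root of F. In the fit against the 3 controls, the p-values rest on the spread between control libraries. In the fit of both Cre libraries, they rest on the spread within each side, which holds the difference between the Nestin-Cre and Olig2-Cre libraries. The common biological coefficient of variation was 0.146 in the former fit and 0.399 in the latter. Steps across genes were tested on simulated data. Alternatives were TMM, DESeq2 1.42.0, totals alone, totals without mitochondrial genes, other filters and folds, and a GC and length adjustment. Others were the MARS method of DEGseq programmed from its formulas, and leaving out each library. Python 3.11.15 was used.

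Readers were named always, and from each pathway list at most the 2 genes with the highest and the 2 with the lowest ratio at a mean of at least 1 CPM. Fxr1, Dennd4c and the promoter motifs were picked after values or sequences were seen. The members and lists were chosen with earlier results of these data known. Not every result of the search for genes of like pattern is reported here.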

Additional observations from a re-analysis of the deposited data

Results flagged for a closer look

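The 5 readers below differed between the Nestin-Cre and Olig2-Cre libraries by a test of the difference itself, the edgeR contrast of both libraries in the fit with the 3 controls. The log2 difference, Nestin-Cre minus Olig2-Cre, was 2.09 for Ythdc1 (Benjamini-Hochberg adjusted p = 0.00019), 2.19 for Fmr1 (0.00021) and 0.68 for Ythdc2 (0.032), and it was -0.85 for Ythdf1 (0.0062) and -0.67 for Ythdf2 (0.035). Each side was 1 library, Cre driver and experiment cannot be told apart, and 43.4% of all genes differed likewise.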

How the results depend on the processing

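Of 493 recomputed log2 values of the readers, 43 changed sign. Of these, 8 had been past 1.2-fold in the pair, or passed edgeR with or without the alternative, and they are given here. In the Nestin-Cre pair Ythdf3 went from -0.58 to 0.11 with TMM and 0.14 with DESeq2 size factors, and Igf2bp3 from -0.50 to 0.18 and 0.21. Igf2bp1 in the Fto pair became -0.014 against the mean of the 3 controls. With library totals alone in edgeR, Ythdc2 became -0.23 in Nestin-Cre and -0.023 in the Nestin-Cre minus Olig2-Cre contrast, where Ythdf3 became -0.59. Some pair ratios under 1.2-fold also ended past it with the other sign. In the Nestin-Cre pair, Ythdc2 went from -0.02 to 0.67 with TMM, 0.70 with DESeq2 size factors and 0.30 without mitochondrial genes. Igf2bp2 went there from 0.24 to -0.34 against the other f/f control. Ythdc1 in the Olig2-Cre pair went from -0.01 to 0.30 after adjustment for GC content and length. Ythdc1 and Fmr1 in the Nestin-Cre library kept their direction and their call under every alternative of the edgeR fit.

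Readers past 1.2-fold fell from 3 to 1 in both the Olig2-Cre and Fto pairs when the MARS FDR under 0.001 was also asked, and to 1 in the Fto pair at 1.5-fold. Genes called in Olig2-Cre went from 0 to 19 without a filter on low counts, 42 with DESeq2, and 3 to 4 without 1 of the controls. In Fto Tg they went from 1 to 3 with RLE size factors, 43 without the filter, 76 with DESeq2, and 3 to 70 without 1 of the controls, with the 70 reached without WT. For both Cre libraries, the replicate block by experiment gave 2 genes in place of 0 and 0 readers, and DESeq2 gave 3 genes. Leaving out 1 library there gave 0 to 8480 genes and 0 to 4 readers, the highest without Olig2-Cre. The cause was not tested. The labels number no replicates, so experiments alone could pair the libraries. With 1 library a group, depth limits Igf2bp1 and Igf2bp2, and spread between mice is unknown.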
